A study of Mus musculus with 18 samples.

Results

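The purinergic and adenosine receptors are cell-surface receptors for extracellular nucleotides, nucleosides and related ligands. The 10 receptor genes described here were matched in the gene-level count table by exact symbol. The rule holds no measured value, although the family was chosen with earlier results of these data known. They comprised 5 P2Y receptors (P2ry1, P2ry2, P2ry6, P2ry10 and P2ry14), 2 P2X channels (P2rx4 and P2rx7) and 3 adenosine receptors (Adora2a, Adora2b and Adora3), out of 50600 gene entries. All 10 passed the filter on low counts, which left 15663 genes to be tested. The counts came from bulk RNA-seq of mouse bone marrow-derived macrophages (BMDMs), grown for 8 days in GM-CSF from WT or IRF5-/- (IRF5 KO) mice, in 6 groups of 3 biological replicates. In the WT LPS DMSO and IRF5 KO LPS DMSO groups, cells received the vehicle DMSO for 1 h and then bacterial LPS at 100 ng/ml for 2 h. In the WT LPS defactinib and IRF5 KO LPS defactinib groups, 3.5 µM defactinib, an inhibitor of the kinases FAK and PYK2, took the place of vehicle during the pretreatment. WT unstimulated and IRF5 KO unstimulated cells received no LPS. Their sample labels name DMSO while the column headers mark them as untreated, so it was not settled whether vehicle was added to them. IRF5 is a transcription factor downstream of Toll-like receptors. The labels give no age for the mice, and GM-CSF cultures of bone marrow are known to hold macrophages and dendritic cells side by side.

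Stressed and dying cells release ATP, UTP and UDP, which are sensed by P2 receptors. P2Y receptors are G protein-coupled, while P2X receptors are ATP-gated cation channels. Ectoenzymes, among them CD39 (Entpd1) and CD73 (Nt5e), break ATP down to adenosine, which acts on its own G protein-coupled receptors. In macrophages, P2X7 is best known for the potassium efflux that activates the NLRP3 inflammasome and the release of IL-1β. The receptors encoded by Adora2a and Adora2b raise cAMP and are known for damping inflammatory cytokine production, whereas the Adora3 receptor couples to inhibitory G proteins.

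The libraries held 39282181 to 61949143 counted read pairs. One library stood apart from its group, IRF5 KO LPS DMSO replicate 3, which correlated with replicates 1 and 2 of that group at r = 0.932 over log2 CPM (counts scaled to the TMM-adjusted library size), against 0.971 to 0.995 for every other within-group pair. It is called the divergent library here, and the calls that rest on it are given with and without it. The 6 groups share 1 estimate of spread, so leaving it out also alters the p-values of comparisons that do not contain it. Irf5 was counted at 614.3 ± 32.5 CPM in WT unstimulated and at 365.2 ± 30.9 CPM in IRF5 KO unstimulated cells (mean ± SD, n = 3 libraries, as throughout). After LPS it stood at 450.8 ± 21.1 CPM in WT and at 403.7 ± 51.3 CPM in IRF5 KO cells, and with defactinib at 275.6 ± 90.2 CPM in WT and at 369.5 ± 20.2 CPM in IRF5 KO cells, the genotypes' libraries overlapping in both conditions. Gene-level counts pool all exons and the labels do not say which exons the allele lacks, so the Irf5 count does not check the genotype labels, and IRF5 KO below means the libraries labelled so. The defactinib target PYK2 (Ptk2b) was at 167.8 ± 5.06 CPM in WT LPS DMSO and 109.2 ± 10.9 CPM in WT LPS defactinib cells. All 8 macrophage markers were detected, with Csf1r at 596.1 CPM or more in every group mean and Lyz2 at 8208 CPM or more. Of the dendritic cell markers, Itgax stood at 1891 CPM or more in every group mean while Siglech and Xcr1 were near 0. Summed lymphocyte markers stayed below 1 CPM in all libraries. Of 9 mast cell and basophil markers Fcer1a, Tpsb2 and Cma1 were at or near 0, while Gata2 stood at 3.27 CPM in WT and 32.3 CPM in IRF5 KO unstimulated cells and Kit at 6.96 and 17.2 CPM. Of 5 platelet markers Gp9 and Gp1bb were at or near 0, but Pf4 stood at 207.1 to 437.4 CPM and Ppbp at 441.4 to 870.1 CPM in the group means. Itga2b stood at 1.088, 2.055 and 1.841 CPM in WT unstimulated, LPS DMSO and LPS defactinib cells. In the same IRF5 KO conditions it stood at 7.372, 13.16 and 8.955 CPM. Summed markers of neutrophils came to 54.5 to 196.5 CPM and of eosinophils to 41.9 to 131 CPM over the libraries. The eosinophil sum was 64.2 to 71.2 CPM in WT unstimulated, 104.7 to 131 CPM in WT LPS DMSO and 66.0 to 90.8 CPM in WT LPS defactinib libraries. All 5 eosinophil markers, like P2ry14 and Adora2a, had their highest WT group mean after LPS in DMSO. In IRF5 KO libraries the sum was 41.9 to 57.5 CPM unstimulated, 64.8 to 75.6 CPM after LPS in DMSO and 43.8 to 45.9 CPM in defactinib. P2ry14 had group means of 102.8, 62.5 and 85.9 CPM in these conditions and Adora2a of 15.5, 61.2 and 120.7 CPM, so neither had that order there. The part of such cells in the receptor values was not tested.

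Measured per transcript length as TPM (counts divided by exon length and scaled to the same total in each library), the receptor that led the family changed with the condition. In WT unstimulated cells the UDP receptor P2ry6 stood highest at 89.5 ± 7.08 TPM, followed by P2rx4 at 61.8 ± 3.45 TPM and Adora2b at 40.5 ± 2.12 TPM. Adora3 stood lowest there at 1.30 ± 0.306 TPM and P2ry1 next lowest at 5.76 ± 0.810 TPM. Of the neighbours in that order, P2ry10 with P2ry2 and Adora2a with P2rx7 had overlapping libraries. In WT LPS DMSO cells Adora2a led at 123 ± 7.66 TPM, ahead of P2ry14 at 48.9 ± 3.86 TPM and P2rx4 at 44.8 ± 1.97 TPM, the last pair overlapping. P2ry6 there came to 7.67 ± 1.46 TPM. In WT LPS defactinib cells P2rx4 led at 60.2 ± 15.5 TPM, and the neighbours from P2ry14 at 19.6 ± 8.44 TPM down to P2ry2 at 3.26 ± 0.410 TPM all overlapped. In IRF5 KO unstimulated cells P2ry6 at 83.9 ± 14.1 TPM and P2rx4 at 74.3 ± 1.54 TPM overlapped at the top. In IRF5 KO LPS DMSO cells all neighbours overlapped once the divergent library was included, with P2rx4 at 56.9 ± 1.65 TPM and Adora2a at 44.9 ± 16.5 TPM at the top. In IRF5 KO LPS defactinib cells the adenosine receptors led, with Adora2a at 78.3 ± 1.25 TPM and Adora2b at 63.3 ± 2.77 TPM, the latter overlapping P2rx4 at 61.7 ± 1.19 TPM.

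**Figure D1:**
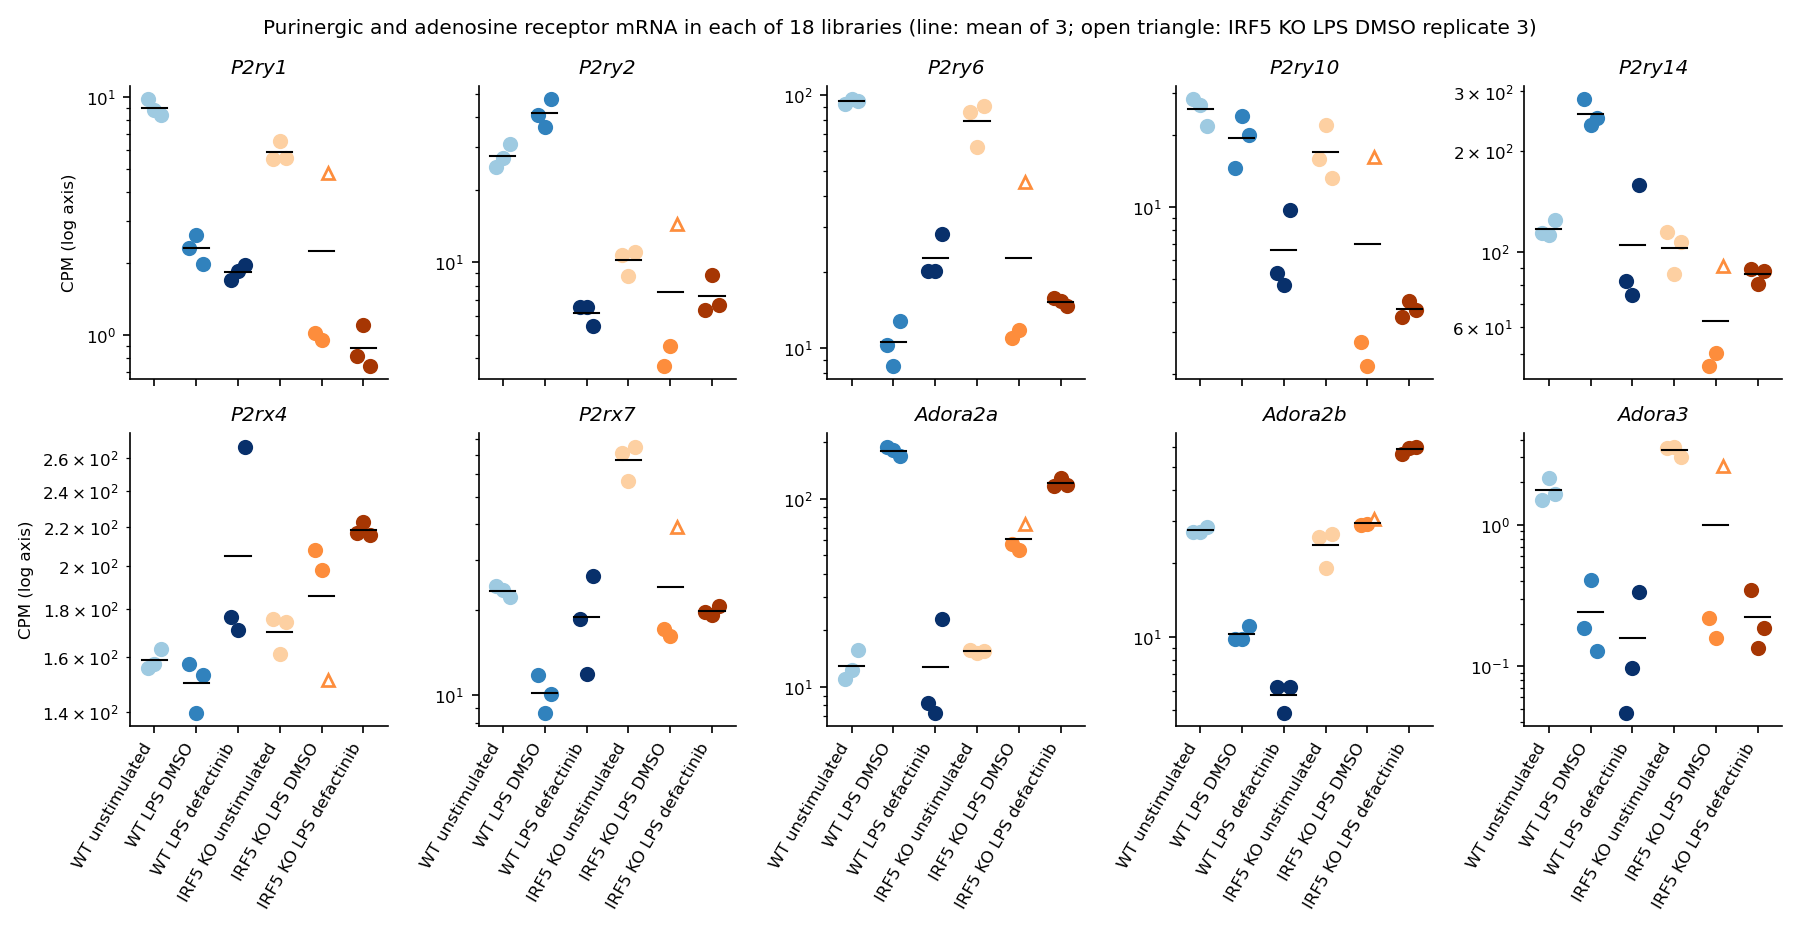
Level of each of the 10 receptor genes in CPM (log axis) in every library of the 6 groups, with the group mean as a line and IRF5 KO LPS DMSO replicate 3 as an open triangle. Adora2a lay between 167.9 and 188.6 CPM in WT LPS DMSO libraries and between 7.27 and 23 CPM in WT LPS defactinib libraries, and the open triangle lay far from its group for P2ry1, P2ry2, P2ry6, P2ry10 and Adora3.

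Each gene was compared between groups with edgeR's quasi-likelihood test over all 15663 genes. A gene was called changed at a Benjamini-Hochberg adjusted p below 0.05 and a fitted fold change above 2, that is a log2 fold change beyond 1 in either direction. LPS in WT cells raised 2 receptors (P2ry14 and Adora2a), beside 11.6% of all tested genes called higher, and lowered 5 (P2ry1, P2ry6, P2rx7, Adora2b and Adora3), beside 9.71% called lower. The median log2 fold change was -0.79 over the receptors and -0.0045 over all tested genes. LPS in IRF5 KO cells raised 1 receptor (Adora2a, beside 7.07% of genes) and lowered 3 (P2ry1, P2ry6 and P2rx7, beside 6.28%). The receptor median was -0.99, against 0.0063 over all genes. Without the divergent library 1 rose and 7 fell, with P2ry2, P2ry10, P2ry14 and Adora3 added, beside 9.64% and 16.6% of the genes then tested, and the receptor median was -1.67.

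Defactinib before LPS in WT cells raised 1 receptor (P2ry6, beside 10.4% of genes called higher) and lowered 4 (P2ry2, P2ry10, P2ry14 and Adora2a, beside 18.6% called lower), with a receptor median of -0.72 against 0.086 over all genes. edgeR called 0 receptors changed by defactinib in IRF5 KO cells, beside 0.160% of all genes called higher and 0.760% called lower. There, 4 receptors (P2ry1, Adora2a, Adora2b and Adora3) had an unadjusted p below 0.05, DESeq2 called 1 (P2ry1, lower) and limma-voom 0. The log2 differences of P2ry1 and Adora3 rested on the divergent library, at -1.36 (adjusted p = 0.0933) and -2.14 (adjusted p = 0.144) with it and -0.15 (adjusted p = 0.714) and 0.28 (adjusted p = 0.829) without it. Without that library 1 receptor was called higher (Adora2b), beside 0.611% of genes. P2ry2 at 0.82 (adjusted p = 0.00925) and P2ry14 at 0.83 (adjusted p = 0.0465) then passed the adjusted p but not the fold threshold. With the library included they were at -0.06 (adjusted p = 0.944) and 0.46 (adjusted p = 0.304).

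**Figure D2:**
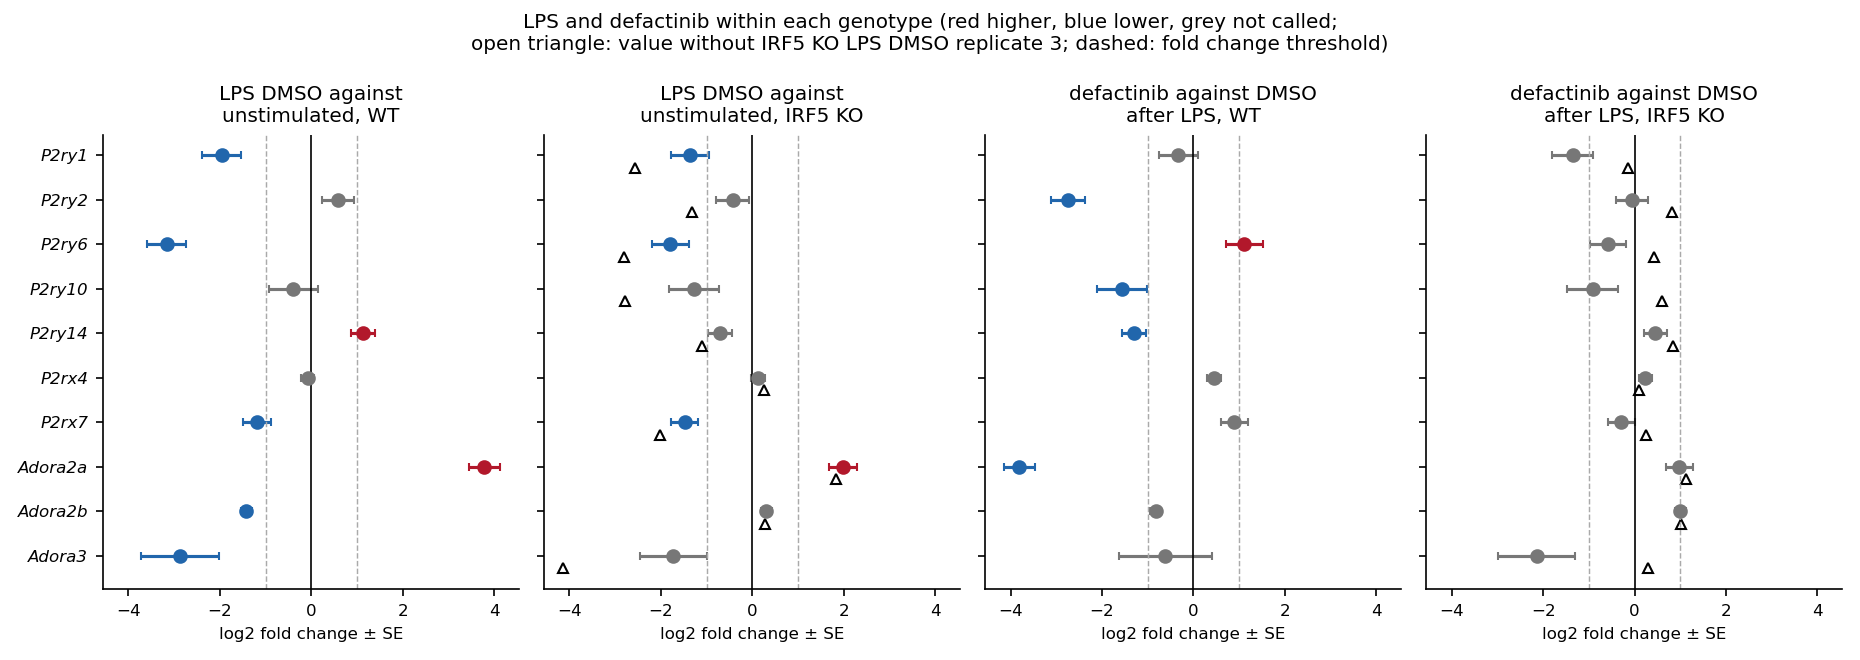
Log2 fold change ± SE of each receptor gene for LPS against unstimulated and for defactinib against DMSO after LPS, in WT and in IRF5 KO cells (red, called higher; blue, called lower; grey, not called; open triangles, the value without IRF5 KO LPS DMSO replicate 3). Adora2a stood at 3.79 for LPS and at -3.81 for defactinib in WT cells, whereas in IRF5 KO cells it stood at 1.98 and 0.98.

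Between genotypes, 2 receptors differed in unstimulated cells. P2rx7 was higher in IRF5 KO cells, beside 3.51% of all genes, and P2ry2 was lower, beside 3.80%. After LPS in DMSO, 3 receptors were higher (P2ry6, P2rx7 and Adora2b, beside 11.8% of genes) and 4 lower in IRF5 KO cells (P2ry2, P2ry10, P2ry14 and Adora2a, beside 14%). Without the divergent library 1 was higher (Adora2b, beside 13.8%) and 5 were lower (P2ry1, P2ry2, P2ry10, P2ry14 and Adora2a, beside 20.7%), so the calls for P2ry6 and P2rx7 rested on that library. After LPS in defactinib, 2 receptors were higher in IRF5 KO cells (Adora2a and Adora2b, beside 8.87%), while edgeR called 0 lower, beside 8.45%. At an unadjusted p below 0.05 there was 1 lower receptor, P2ry1, which DESeq2 called lower (1 receptor) and limma-voom did not (0). With that library left out, which alters the spread estimated over all groups, P2ry1 was called lower, beside 10.3% of genes.

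The difference in response between the genotypes was tested directly as an interaction. The LPS response was more positive in IRF5 KO than in WT cells for 1 receptor (Adora2b, beside 3.49% of genes) and more negative for 2 (P2ry14 and Adora2a, beside 6.33%). Without the divergent library P2ry2 and P2ry10 joined the latter, beside 16.5% of genes. The defactinib response was more positive in IRF5 KO cells for 4 receptors (P2ry2, P2ry14, Adora2a and Adora2b, beside 12.3%) and more negative for 2 (P2ry6 and P2rx7, beside 10.5%). Leaving that library out removed the calls for P2ry6 and P2rx7 and added P2ry10 as more positive, beside 18.8% of genes. These comparisons share libraries, so that a low WT LPS DMSO value, for example, enters 5 of them at once.

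**Figure D3:**
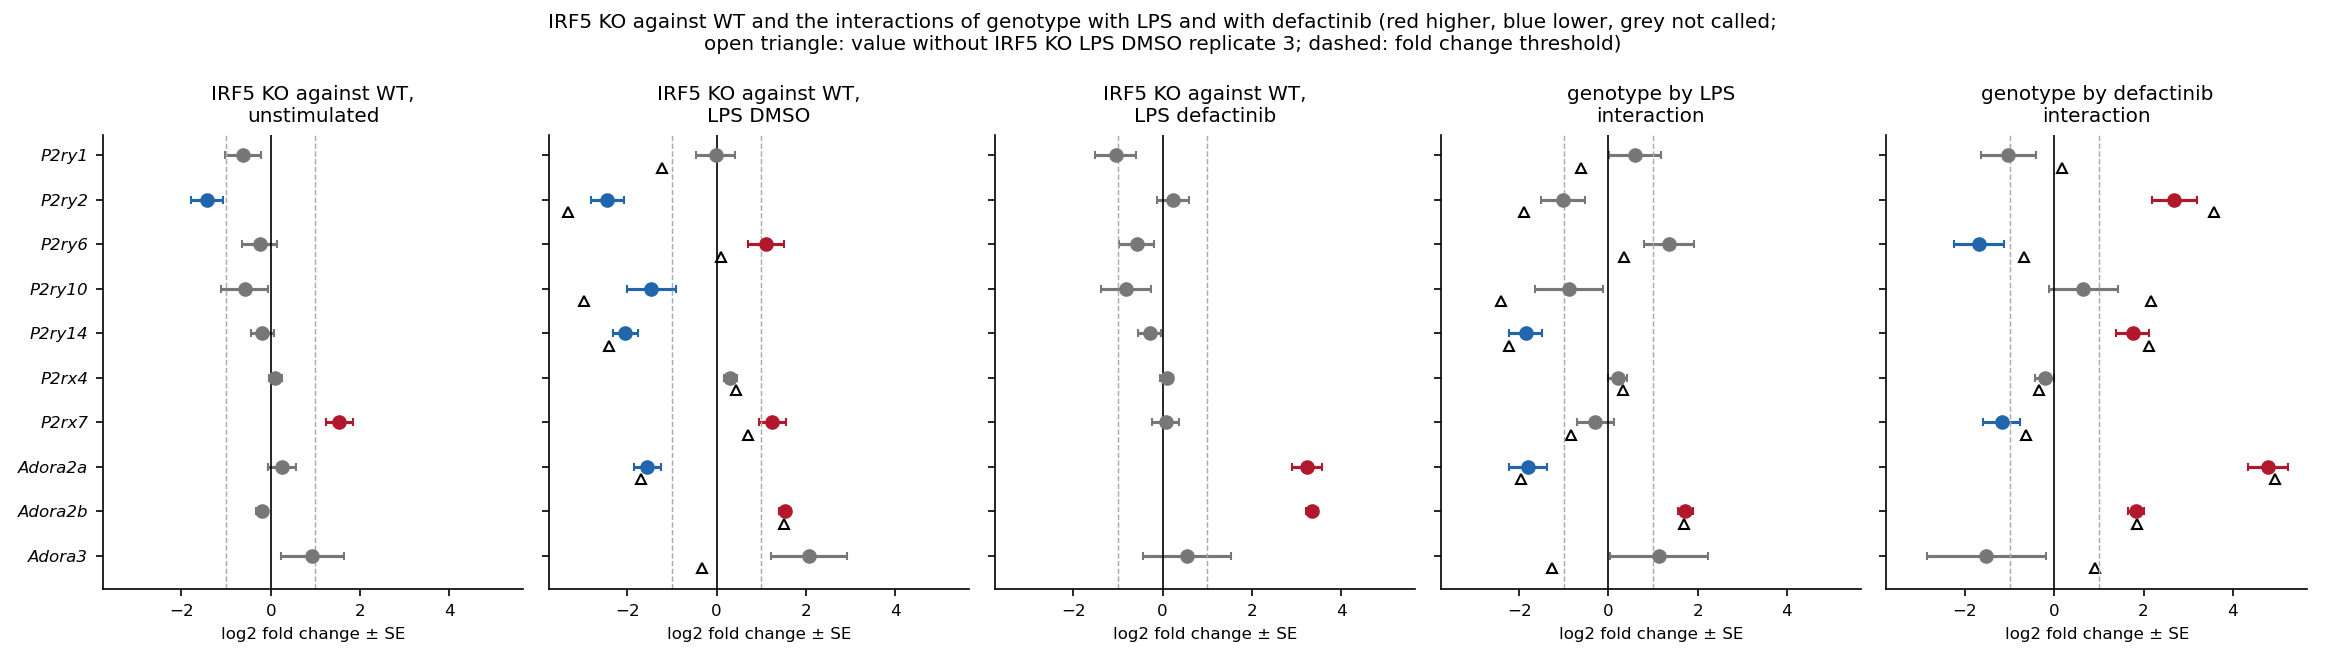
Log2 fold change ± SE of each receptor gene between IRF5 KO and WT cells in the 3 conditions, and the interactions of genotype with LPS and with defactinib (colours and triangles as in the plot of treatment responses). Adora2a and Adora2b lay at 3.24 and 3.35 in defactinib-treated cells, where the other 8 receptors were not called.

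P2ry1 encodes a receptor for ADP coupled to calcium release. WT unstimulated libraries held 9.77, 8.81 and 8.43 CPM (replicates 1, 2 and 3, in this order throughout), and WT LPS DMSO libraries 2.32, 2.64 and 1.98 CPM. The groups lay apart, and P2ry1 fell by 1.96 on the log2 scale (SE 0.43, adjusted p = 0.00165), or 3.90-fold in mean CPM. WT LPS defactinib libraries held 1.70, 1.85 and 1.98 CPM, just below those with DMSO, and the difference did not pass the test (log2 fold change -0.33, adjusted p = 0.534). IRF5 KO unstimulated libraries held 5.50, 6.56 and 5.53 CPM, and IRF5 KO LPS DMSO libraries 1.02, 0.954 and 4.77 CPM. Replicate 3 of the latter, the divergent library, lay near the unstimulated level and the other 2 far below it. The log2 response to LPS was -1.36 (adjusted p = 0.0222) with it and -2.57 (adjusted p = 9.3e-09) without it. Leaving out instead replicate 2 of the unstimulated IRF5 KO group (adjusted p = 0.0604), or replicate 1 or 2 of the group with LPS in DMSO (adjusted p = 0.10 and 0.0956), ended this call, as did fitting only the groups compared (adjusted p = 0.197). IRF5 KO LPS defactinib libraries held 0.819, 1.10 and 0.744 CPM, below all 3 WT LPS defactinib libraries, with a log2 difference of -1.05 that did not pass the test with all libraries (adjusted p = 0.0819) and did without the divergent one (adjusted p = 0.000106), without replicate 1 or 2 of its group, with DESeq2 and with only the groups compared in the fit. P2ry1 overlaps an annotated gene on the opposite strand, Gm37035, and the counting was stranded.

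P2ry2 encodes a receptor for ATP and UTP that is known for the chemotaxis of phagocytes towards dying cells. Its libraries held 24.8, 27.0 and 31.0 CPM in WT unstimulated cells and 40.7, 36.3 and 47.4 CPM in WT LPS DMSO cells, a log2 difference of 0.59 that did not pass the test (SE 0.35, adjusted p = 0.195) although the libraries lay apart. Without the divergent library the difference was again 0.59 (adjusted p = 0.00175), under the fold threshold. With defactinib the WT libraries held 6.56, 6.52 and 5.47 CPM. All 3 were far below every other WT library, and P2ry2 fell by 2.75 against WT LPS DMSO (SE 0.37, adjusted p = 2.25e-05), or 6.71-fold in mean CPM. IRF5 KO cells held less P2ry2 from the start, with 10.8, 8.81 and 11.1 CPM unstimulated, or 2.70-fold less in mean CPM than WT (log2 fold change -1.43, SE 0.35, adjusted p = 0.0111). This call was lost without IRF5 KO unstimulated replicate 2 (-1.33, adjusted p = 0.0585). Without the divergent library, which is in neither group, it was kept, at -1.43 (adjusted p = 1.22e-06). IRF5 KO LPS DMSO libraries held 3.73, 4.51 and 14.4 CPM, the divergent library being highest. The LPS response in IRF5 KO cells was -0.43 (adjusted p = 0.341) with that library and -1.32 (adjusted p = 6.06e-06) without it. The LPS interaction was -1.02 (adjusted p = 0.163) with it and -1.90 (adjusted p = 2.79e-06) without it. The log2 fold change from WT LPS DMSO was -2.45 (SE 0.37, adjusted p = 7.2e-05), and -3.33 without the divergent library. With defactinib the IRF5 KO libraries held 6.34, 8.89 and 6.64 CPM and overlapped the WT ones, with a log2 difference of 0.24 (adjusted p = 0.637). The defactinib response therefore differed between genotypes by 2.69 (SE 0.51, adjusted p = 0.00075), or by 3.57 without the divergent library.

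P2ry6, the receptor for UDP, is known for promoting phagocytosis in microglia. It was the receptor that LPS lowered most in WT cells by ratio of mean CPM, from 92.4, 96.1 and 94.7 CPM to 10.3, 8.54 and 12.8 CPM. The 2 groups lay far apart, and P2ry6 fell by 3.16 (SE 0.43, adjusted p = 2.75e-05), or 8.93-fold. Defactinib left WT libraries at 20.1, 20.1 and 28.2 CPM, above all of those with DMSO, and raised P2ry6 by 1.11 (SE 0.40, adjusted p = 0.0281). That call was lost without WT LPS DMSO replicate 1 (adjusted p = 0.0641), WT LPS DMSO replicate 2 (adjusted p = 0.0880) or WT LPS defactinib replicate 3 (adjusted p = 0.0818), the fold change staying between 0.95 and 1.29, and when no filter on low counts was applied (1.09, adjusted p = 0.0836). Without the divergent library, which is in neither group, the call was kept, at 1.11 (adjusted p = 1.1e-05). In IRF5 KO cells P2ry6 stood at 85.5, 62.1 and 90.1 CPM unstimulated and at 11, 11.8 and 45.5 CPM after LPS in DMSO. The divergent library again lay between the others and the unstimulated group, and the LPS response was -1.80 (adjusted p = 0.00513) with it and -2.80 (adjusted p = 2.85e-09) without it. With only the groups compared in the fit it did not pass the test (adjusted p = 0.122). With defactinib the IRF5 KO libraries held 15.8, 15.4 and 14.6 CPM. The higher P2ry6 in IRF5 KO than in WT cells after LPS in DMSO (log2 fold change 1.11, adjusted p = 0.0304) came with overlapping libraries. It was 0.11 without the divergent library (adjusted p = 0.615), and it was also lost without WT LPS DMSO replicate 1 (adjusted p = 0.0715) or 2 (adjusted p = 0.0956), with limma-voom (0.84, adjusted p = 0.101), with no filter on low counts (adjusted p = 0.0732), with only those groups fitted (adjusted p = 0.185) and, by the fold threshold, with a replicate block (0.97).

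P2ry10 encodes a receptor for lysophosphatidylserine rather than a nucleotide, and lies on the X chromosome beside its paralogue P2ry10b, so reads of their shared sequence could be lost or split. WT unstimulated libraries held 28.2, 26.7 and 21.8 CPM and WT LPS DMSO libraries 14.6, 23.9 and 20 CPM. They overlapped, and the log2 difference of -0.39 did not pass the test (SE 0.53, adjusted p = 0.597). With defactinib the WT libraries held 5.30, 4.72 and 9.76 CPM, all below those with DMSO, and P2ry10 fell by 1.56 (SE 0.55, adjusted p = 0.0253), or 2.96-fold in mean CPM. The call was lost without WT LPS DMSO replicate 2 (adjusted p = 0.0774) or 3 (adjusted p = 0.0519) or without WT LPS defactinib replicate 1 (adjusted p = 0.0824) or 2 (adjusted p = 0.0929). It was also lost with scaling by library size alone (-1.37, adjusted p = 0.0511) and with no filter on low counts (-1.58, adjusted p = 0.0685). Without the divergent library, which is in neither group, it was kept, at -1.57 (adjusted p = 6.04e-05). IRF5 KO libraries held 15.9, 21.9 and 13.2 CPM unstimulated and 2.74, 2.17 and 16.1 CPM after LPS in DMSO. The first 2 of the latter lay far below every unstimulated library, while the divergent library lay among them. The LPS response was -1.27 (adjusted p = 0.0787) with it and -2.79 (adjusted p = 2.47e-06) without it. With all libraries it was called lower by DESeq2 (-1.26, adjusted p = 0.0369), by limma-voom (-1.76, adjusted p = 0.0104) and with a replicate block (-1.51, adjusted p = 0.0461). Against WT LPS DMSO, P2ry10 was lower, at a log2 fold change of -1.46 (adjusted p = 0.0367) with the divergent library and -2.98 (adjusted p = 1.01e-06) without it. The former call was also lost when replicate 2 or 3 was left out of WT LPS DMSO, or replicate 1 or 2 of its IRF5 KO counterpart, with adjusted p of up to 0.135. It was lost as well with library size alone (-1.13, adjusted p = 0.106), with no filter on low counts (adjusted p = 0.107) and with only those groups fitted (adjusted p = 0.205). IRF5 KO LPS defactinib libraries held 3.47, 4.05 and 3.72 CPM, a log2 difference of -0.92 from DMSO (adjusted p = 0.335) with the divergent library and 0.60 (adjusted p = 0.282) without it.

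P2ry14 encodes the receptor for UDP-glucose and other UDP-sugars, which couples to inhibitory G proteins. It was the only P2Y member that LPS raised in WT cells, from 113.9, 112.6 and 125 CPM to 284.3, 238 and 250.8 CPM. The libraries lay apart, with a log2 fold change of 1.14 (SE 0.26, adjusted p = 0.00252) and 2.20-fold more in mean CPM. When the counts were scaled by library size alone, the log2 fold change was 0.76 (adjusted p = 0.0309) and no longer passed the fold threshold. With defactinib the WT libraries held 82.2, 74.7 and 158.2 CPM. Replicate 3 was highest but still below every WT LPS DMSO library, and P2ry14 fell by 1.30 (SE 0.26, adjusted p = 0.000736). IRF5 KO libraries held 114.6, 86.2 and 107.6 CPM unstimulated, overlapping WT, and 46.0, 50.3 and 91.1 CPM after LPS in DMSO. In these cells the LPS response was therefore negative, at -0.72 (adjusted p = 0.0429, not past the fold threshold) with the divergent library and -1.09 (adjusted p = 0.00119) without it. The difference between the genotypes' LPS responses was -1.85 (SE 0.37, adjusted p = 0.00397), or -2.23 without the divergent library. After LPS in DMSO, IRF5 KO cells held 4.12-fold less P2ry14 than WT in mean CPM (log2 fold change -2.04, SE 0.27, adjusted p = 2.46e-05), or a log2 fold change of -2.42 without the divergent library. IRF5 KO LPS defactinib libraries held 89.2, 80.4 and 88.0 CPM, within the range of the WT LPS defactinib libraries, and the genotypes did not differ by the test there (log2 difference -0.29, SE 0.26, adjusted p = 0.411).

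P2rx4, an ATP-gated channel found largely on lysosomes in macrophages, was high in every group. WT libraries held 155.9, 157.3 and 163.1 CPM unstimulated, 157.5, 139.7 and 153.2 CPM after LPS in DMSO, and 176.6, 171.1 and 267.3 CPM after LPS in defactinib. IRF5 KO libraries held 175.5, 161.3 and 174.3 CPM unstimulated, 207.7, 197.9 and 151.3 CPM with LPS in DMSO, and 216.8, 222.3 and 215.7 CPM with LPS in defactinib. P2rx4 was not called in any of the 9 tests. Its log2 response to LPS was -0.08 (SE 0.14, adjusted p = 0.695) in WT cells. The WT defactinib libraries all lay above those with DMSO, by 0.45 on the log2 scale (SE 0.15, adjusted p = 0.0154), which passed the adjusted p but not the fold threshold.

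P2rx7 encodes the ATP-gated channel P2X7. It differed between genotypes at rest, with 24.1, 23.4 and 22.1 CPM in WT unstimulated and 71.0, 56.6 and 75.0 CPM in IRF5 KO unstimulated libraries. These lay apart, with a log2 fold change of 1.54 (SE 0.30, adjusted p = 0.00227) and 2.91-fold more in mean CPM. LPS lowered P2rx7 in WT cells to 11.7, 8.65 and 10.1 CPM, with a log2 fold change of -1.19 (SE 0.30, adjusted p = 0.00465). It also lowered it in IRF5 KO cells, to 17.1, 16.2 and 39.1 CPM, with a log2 fold change of -1.48 (SE 0.30, adjusted p = 0.00313), or -2.02 without the divergent library. The latter call was lost with only the groups compared in the fit (adjusted p = 0.107). The difference between the 2 LPS responses was -0.29 and did not pass the test (SE 0.42, adjusted p = 0.653). Without the divergent library it was -0.83 (adjusted p = 0.0328), which passed the adjusted p but not the fold threshold. After LPS in DMSO P2rx7 stood higher in IRF5 KO cells by 1.25 (adjusted p = 0.00314), or by 0.71 without the divergent library (adjusted p = 0.0110), which is under the fold threshold. With defactinib the WT libraries held 18.5, 11.9 and 26.3 CPM and the IRF5 KO libraries 19.6, 19.2 and 20.6 CPM. The WT response to defactinib was 0.89 (adjusted p = 0.0197), under the fold threshold, and was called with library size alone (1.09) and when replicate 1 of WT LPS DMSO (1.02) or replicate 2 of WT LPS defactinib (1.15) was left out. The genotypes overlapped, with a log2 difference of 0.07 (SE 0.30, adjusted p = 0.876). The ratio of P2rx4 to P2rx7 in TPM was 5.49 to 6.26 in WT unstimulated libraries, 1.98 to 2.42 in IRF5 KO unstimulated libraries and 11.4 to 13.7 in WT LPS DMSO libraries. It was 10.4, 10.4 and 3.29 in IRF5 KO LPS DMSO libraries, the divergent one lowest, and 8.10 to 12.3 in WT and 8.88 to 9.85 in IRF5 KO LPS defactinib libraries. A microRNA gene, Mir8115, overlaps P2rx7 on the same strand.

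Adora2a encodes the high-affinity adenosine receptor that raises cAMP, and had the largest fitted fold changes of the 10 for LPS and for defactinib in WT cells. WT unstimulated libraries held 11, 12.4 and 15.6 CPM and WT LPS DMSO libraries 188.6, 181.3 and 167.9 CPM. No library of one group came near the other, and Adora2a rose by 3.79 (SE 0.34, adjusted p = 4.67e-07), or 13.8-fold in mean CPM. With defactinib the WT libraries held 8.21, 7.27 and 23 CPM, replicates 1 and 2 below and replicate 3 above the unstimulated libraries. The log2 fold change from WT LPS DMSO was -3.81 (SE 0.34, adjusted p = 4.07e-07), a 14-fold fall in mean CPM. Without WT LPS defactinib replicate 3 it was -4.52. In IRF5 KO cells Adora2a stood at 15.8, 15.1 and 15.5 CPM unstimulated and at 57.4, 53.3 and 72.9 CPM after LPS in DMSO. LPS thus raised it there too, by 1.98 (SE 0.31, adjusted p = 0.000788), or by 1.84 without the divergent library. The rise was smaller than in WT cells, the interaction being -1.80 (SE 0.43, adjusted p = 0.0112) and -1.95 without the divergent library. IRF5 KO LPS defactinib libraries held 116.8, 127.8 and 117.6 CPM, all above those with DMSO, while the log2 difference of 0.98 did not pass the test (SE 0.30, adjusted p = 0.0785; 1.13 and adjusted p = 0.0722 without the divergent library). The response to defactinib differed between the genotypes by 4.79 (SE 0.45, adjusted p = 1.54e-06), or by 4.93 without the divergent library. In defactinib-treated cells IRF5 KO libraries held 9.42-fold more Adora2a than WT in mean CPM (log2 fold change 3.24, SE 0.33, adjusted p = 2.13e-06). Without WT LPS defactinib replicate 3 the difference in response was 5.48 and the log2 fold change between genotypes 3.94.

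Adora2b, which encodes the lower-affinity receptor that also raises cAMP, stood at 27.0, 26.8 and 28.2 CPM in WT unstimulated and at 9.79, 9.77 and 11.1 CPM in WT LPS DMSO libraries. The groups lay apart, and Adora2b fell by 1.42 (SE 0.12, adjusted p = 3.2e-07), or 2.67-fold. Defactinib left 6.21, 4.86 and 6.19 CPM in WT cells, lower than with DMSO at a log2 fold change of -0.83 (SE 0.13, adjusted p = 5.43e-05), under the fold threshold. IRF5 KO cells did not show this fall. Their libraries held 25.8, 19.1 and 26.3 CPM unstimulated and 28.7, 29.2 and 30.4 CPM after LPS in DMSO, the divergent library lying with its group, and the log2 difference was 0.31 (SE 0.12, adjusted p = 0.0543). The LPS response differed between the genotypes by 1.73 (SE 0.17, adjusted p = 2.6e-05), or by 1.70 without the divergent library. With defactinib the IRF5 KO libraries rose above all others, to 56.4, 59.7 and 60.4 CPM. Against IRF5 KO LPS DMSO the log2 fold change was 1.00 (SE 0.12, adjusted p = 0.00182), which falls just under the fold threshold, and 1.02 without the divergent library (adjusted p = 0.000235), which passes it. The mean CPM was 2.00-fold higher. Compared with WT cells in defactinib, Adora2b was 10.2-fold higher in mean CPM (log2 fold change 3.35, SE 0.13, adjusted p = 1.18e-10). The summed level of the 8 macrophage markers was also highest in IRF5 KO LPS defactinib libraries, at 18210.0 to 19150.0 CPM against 9740.0 to 15130.0 CPM in the other groups. Lyz2 made up most of that sum, at 15380.0 CPM, and Csf1r, Itgam and Cd68 also had their highest group means there (1188, 700.1 and 381.1 CPM), whereas Mertk at 27.6 CPM and Fcgr1 at 38.5 CPM had their lowest group means there. Their part in the Adora2b value was not tested.

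The 2 receptors that raise cAMP thus changed places in WT cells. The ratio of Adora2a to Adora2b in TPM was 0.245 to 0.334 in WT unstimulated libraries and 9.11 to 11.6 in WT LPS DMSO libraries. It was 0.797, 0.901 and 2.24 in WT LPS defactinib libraries. In IRF5 KO libraries it was 0.355 to 0.477 unstimulated, 1.10 to 1.45 after LPS in DMSO and 1.17 to 1.29 after LPS in defactinib. In bulk RNA, fewer cells of a type and less RNA per cell cannot be told apart. Of the 8 dendritic cell markers, Zbtb46 and Ccr7 had the order of Adora2a in each genotype, as did Xcr1, which was near 0. Zbtb46 stood at 60.4, 91.3 and 25.3 CPM in WT unstimulated, LPS DMSO and LPS defactinib cells and at 34.9, 61.9 and 70.8 CPM in the same IRF5 KO conditions, and Ccr7 at 36.1, 310.7 and 23.2 CPM and at 63.1, 114 and 156.1 CPM (group means). Several other markers on that list did not have this order. Clec9a stood at 9.45, 4.99 and 9.70 CPM in the WT and at 9.29, 4.96 and 10.4 CPM in the IRF5 KO conditions, Flt3 at 2.11 and 2.16 CPM in WT cells after LPS with DMSO and with defactinib, and Itgax at 2329, 2457 and 2656 CPM in WT cells. Itgax makes up most of the summed level of the list, which is therefore not given. The part of cell composition in the Adora2a values was not tested.

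**Figure D4:**
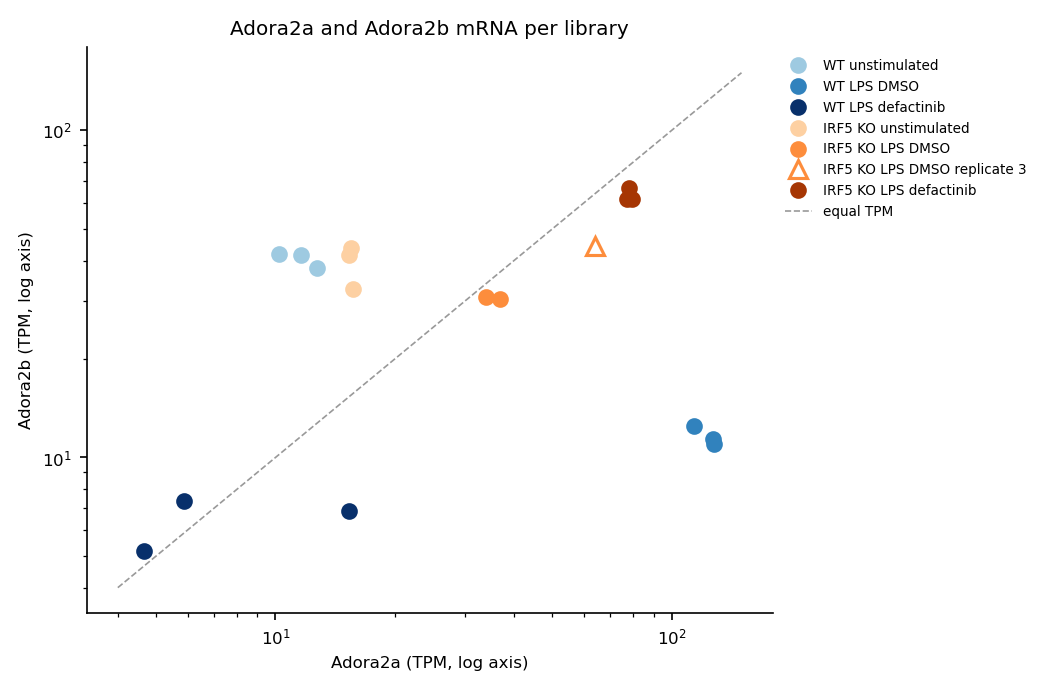
Adora2a against Adora2b in TPM (log axes) for each of the 18 libraries, coloured by group, with a dashed line where the values are equal. WT LPS DMSO libraries lay far to the right of the line at ratios of 9.11 to 11.6, both unstimulated groups lay above it, and IRF5 KO LPS defactinib libraries lay high on both axes at ratios of 1.17 to 1.29.

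Adora3, encoding the receptor that lowers cAMP, was the lowest of the 10 in every group by TPM and the least precisely counted, with 19 to 566 counted read pairs per group of 3 libraries. It also shares exons on the same strand with Tmigd3, so its counts are uncertain. WT unstimulated libraries held 1.5, 2.15 and 1.65 CPM and WT LPS DMSO libraries 0.186, 0.409 and 0.127 CPM. They lay apart, and Adora3 fell by 2.87 (SE 0.84, adjusted p = 0.0122). The call was lost without WT LPS DMSO replicate 1 (adjusted p = 0.0504) or 3 (adjusted p = 0.0540) and under DESeq2. Without the divergent library, which is in neither group, it was kept, at -2.87 (adjusted p = 2.38e-05). WT LPS defactinib libraries held 0.0465, 0.0962 and 0.334 CPM. IRF5 KO libraries held 3.51, 3.58 and 3.05 CPM unstimulated, 0.218, 0.159 and 2.60 CPM after LPS in DMSO and 0.349, 0.134 and 0.186 CPM after LPS in defactinib. The divergent library was more than 10 times above its fellow libraries, and the LPS response was -1.73 (adjusted p = 0.0746) with it and -4.14 (adjusted p = 3.34e-06) without it. With all libraries it was called lower by limma-voom (-2.69, adjusted p = 0.00402) and with a replicate block (-2.10, adjusted p = 0.0472). Mast cells are a known site of Adora3 expression. From WT unstimulated to WT LPS DMSO cells the mast cell and basophil markers Kit and Gata2 stood at 6.96 and 9.58 CPM and at 3.27 and 3.75 CPM, while Hdc stood at 0.554 and 35.4 CPM and the markers most specific to mast cells were near 0. In the divergent library the sum over the 9 markers was 101.3 CPM, the highest of all libraries, against 49.4 and 49.7 CPM in the other 2. Gata2, Hdc and Kit made up most of it, with highest values of 51.5, 28.9 and 20.2 CPM in IRF5 KO LPS DMSO libraries. IRF5 KO unstimulated libraries, which held more Adora3 than the divergent library, had sums of 49.2 to 57.4 CPM. The part of these markers in the Adora3 values was not tested.

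The divergent library departed from its group in the same direction for most of the family. For P2ry1, P2ry2, P2ry6, P2ry10, P2ry14, P2rx7 and Adora3 it lay above both other IRF5 KO LPS DMSO libraries, in the direction of the unstimulated level. For P2rx4 it lay below them in CPM, at 151.3 against 207.7 and 197.9 CPM, but between them in TPM, at 57.8 against 58.0 and 55.0 TPM. Adora2b stood at 30.4 CPM against 28.7 and 29.2 CPM, and at 44.2 TPM against 30.5 and 30.9 TPM, so both depend on the scale. Adora2a was higher at 72.9 CPM against 57.4 and 53.3 CPM, which is further from the unstimulated level. The interactions of Adora2a, Adora2b and P2ry14 with either treatment, and that of P2ry2 with defactinib, were called with and without that library.

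Promoter sequences, the 250 bases before each RefSeq transcript start (GRCm38.p6, the assembly that mm10 denotes), were found for 8 of the 10 receptors, in 14 windows. Adora2a and P2ry6 are named only. Of 4 short motifs searched on both strands, the interferon-stimulated response element, a NF-kB motif, the cAMP response element and the AP-1 motif TGANTCA, only AP-1 occurred, in 5 of the 14 windows (P2ry10, 2 starts of P2ry14, P2rx7 and Adora3). Over all 32851 windows of the same length the shares were 2.98% for the interferon-stimulated response element, 1.41% for NF-kB, 1.55% for the cAMP response element and 6.75% for AP-1. The windows below belong to P2ry14 and Adora2b, whose responses to both treatments differed between genotypes, and to P2ry10, which holds the same AP-1 letters as P2ry14. All are printed 5′ to 3′ on the strand of the gene, with the AP-1 match in capitals.
P2ry14 (start site 2, minus strand, chr3:59131329-59131578, within an intron of P2ry14 and of Med12l on the opposite strand): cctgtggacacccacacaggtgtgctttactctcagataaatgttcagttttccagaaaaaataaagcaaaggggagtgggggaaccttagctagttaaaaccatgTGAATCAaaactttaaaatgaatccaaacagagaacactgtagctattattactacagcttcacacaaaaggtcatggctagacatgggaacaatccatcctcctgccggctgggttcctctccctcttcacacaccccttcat
P2ry10 (start site 1, plus strand, chrX:107088242-107088491): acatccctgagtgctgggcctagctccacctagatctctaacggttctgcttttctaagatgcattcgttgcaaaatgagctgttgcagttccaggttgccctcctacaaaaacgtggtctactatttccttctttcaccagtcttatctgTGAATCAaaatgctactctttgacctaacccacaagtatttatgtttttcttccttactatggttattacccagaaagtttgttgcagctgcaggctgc
Adora2b (plus strand, chr11:62248734-62248983): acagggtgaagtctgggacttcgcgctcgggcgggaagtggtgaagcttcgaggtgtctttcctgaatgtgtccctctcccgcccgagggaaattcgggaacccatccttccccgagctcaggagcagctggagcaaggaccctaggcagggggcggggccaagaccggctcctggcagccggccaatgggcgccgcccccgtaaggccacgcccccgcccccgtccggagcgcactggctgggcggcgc
The AP-1 match began 144 bases before the start in P2ry14 and 99 bases before it in P2ry10, and the Adora2b window held none of the motifs. A match describes letters in a window and not a bound site. In mm10 the genes lie at chr3:59113855-59153618 (P2ry14), chrX:107088492-107104974 (P2ry10), chr11:62248984-62266453 (Adora2b), chr10:75316877-75334784 (Adora2a), chr7:100937630-100974649 (P2ry6) and chr7:100996568-101012866 (P2ry2). P2rx7 at chr5:122643911-122691432 and P2rx4 at chr5:122707544-122729738 are neighbours on the plus strand, and P2ry1 and Adora3 lie at chr3:61002795-61008982 and chr3:105870858-105908926.

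Other P2 and adenosine receptors and their relatives were also counted, and 8 of 14 were tested. LPS in WT cells raised 1 (P2rx1, log2 fold change 1.71) and lowered 1 (Gpr171, -1.64), beside 11.6% and 9.71% of all genes. Defactinib in WT cells lowered 4 (P2ry10b, P2ry13, Gpr34 and P2rx1), beside 18.6% of genes. P2ry10b, the paralogue of P2ry10, fell from 58.8 to 67.0 CPM across WT LPS DMSO libraries to 6.57 to 11.7 CPM with defactinib, a log2 fold change of -2.90 (SE 0.61, adjusted p = 0.00101). In unstimulated IRF5 KO cells 4 stood higher than in WT, beside 3.51% of genes. Among them P2ry13, a receptor for ADP, was at 37.7 ± 5.03 CPM against 12 ± 0.652 CPM (log2 fold change 1.66, SE 0.39, adjusted p = 0.0088), and P2ry12, the ADP receptor known from platelets and microglia, at 5.35 ± 0.160 against 2.65 ± 0.273 CPM. After LPS in DMSO 1 was lower in IRF5 KO cells, beside 14% of genes (P2ry10b, log2 fold change -3.28, or -5.23 without the divergent library). Without that library 3 were lower, with P2ry13 and P2rx5 added, beside 20.7% of genes. Leaving it out, which alters the spread estimated over all groups, also added P2ry10b and P2rx6 as lower in unstimulated IRF5 KO cells, beside 4.53% of genes. LPS in IRF5 KO cells raised 1, a call lost without the divergent library, and lowered 3, or 5 without the divergent library (Gpr34, P2ry10b, Gpr171, P2ry13 and P2ry12), beside 7.07% of genes called higher and 6.28% lower with it and 9.64% and 16.6% without it. The list medians were -0.16 for LPS and -1.02 for defactinib in WT cells and 0.74 between unstimulated genotypes, against -0.0045, 0.086 and 0.011 over all genes.

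Of the genes that release nucleotides or make and remove adenosine, 16 of 25 were tested. In WT cells LPS raised 1 of them (Cd38, an NAD-consuming ectoenzyme, by 1.87) and lowered 3 (Panx1, Entpd6 and Slc29a2), beside 11.6% and 9.71% of all genes called, with a list median of -0.51 against -0.0045 over all genes. Panx1, which encodes a channel for ATP release, fell by 1.06 (SE 0.12, adjusted p = 4.79e-06). Defactinib in WT cells raised 4 (Dpp4, Nt5e, Slc17a9 and Slc29a2), beside 10.4% of all genes, with a list median of 0.37 against 0.086. In IRF5 KO cells LPS lowered 3 of the list, or 5 without the divergent library, beside 6.28% and 16.6% of genes. Nt5e, which encodes the AMP-hydrolysing CD73, stood at 3.60 ± 0.593, 1.98 ± 0.606 and 5.14 ± 2.15 CPM in WT unstimulated, LPS DMSO and LPS defactinib cells. In IRF5 KO cells it stood at 12.4 ± 1.39, 8.11 ± 0.573 and 11.1 ± 1.53 CPM, higher than in WT by 1.79, 2.03 and 1.11 on the log2 scale, all 3 called. The ATP-hydrolysing pyrophosphatase Enpp1 was lower in IRF5 KO cells in all 3 conditions, at 0.475 ± 0.0668 against 6.96 ± 0.336 CPM unstimulated, and with a log2 fold change of -4.48 after LPS in DMSO (-4.69 without the divergent library). The lysosomal nucleoside transporter Slc29a3 was also lower, with log2 fold changes of -1.66, -1.68 and -1.61 (-1.94 after LPS in DMSO without the divergent library). Unstimulated IRF5 KO cells showed 3 of the list higher and 2 lower, those after LPS in DMSO 3 and 2 (4 and 2 without the divergent library), and those after LPS in defactinib 2 and 2. The shares of all genes called higher and lower in these comparisons were 3.51% and 3.80%, 11.8% and 14% (13.8% and 20.7% without the divergent library), and 8.87% and 8.45%. Entpd1, encoding CD39, was at 46.1 CPM or more in every group mean.

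Among 12 genes of the P2X7 output and inflammasome, all tested, LPS raised 3 in WT cells, beside 11.6% of all genes, with a list median of 0.32 against -0.0045 over all genes. Il1b rose by 5.45 (SE 0.79, adjusted p = 5.47e-05), Nlrp3 by 1.68 and Casp4 by 2.60. The same 3 rose in IRF5 KO cells, by 4.25, 1.71 and 1.18, or by 3.44, 1.90 and 1.21 without the divergent library (beside 7.07% and 9.64% of genes), when Kcnk6 was called lower as well, beside 16.6% of genes called lower. Defactinib in WT cells lowered 5, beside 18.6% of all genes, with a list median of -0.30 against 0.086. Nlrp3 fell by 2.61 (SE 0.18, adjusted p = 2.56e-08), from 382.7 ± 33.8 to 62.5 ± 15.5 CPM. Il1b fell by 3.02 and Txnip fell by 1.49, and Casp4 and the potassium channel gene Kcnk6 fell as well. edgeR called 0 of the 12 changed by defactinib in IRF5 KO cells, beside 0.160% of all genes called higher and 0.760% lower. There, 3 had an unadjusted p below 0.05, and Nlrp3 stood at 328 ± 82.7 CPM in DMSO and 526.4 ± 7.52 CPM in defactinib. The defactinib response differed between genotypes for 4 of the 12, all more positive in IRF5 KO cells (Il1b, Txnip, Nlrp3 and Casp4, by 3.88, 1.42, 3.30 and 2.01), and for 5 without the divergent library, with Kcnk6 added, beside 12.3% and 18.8% of genes. After LPS in DMSO 4 were lower in IRF5 KO than in WT cells (Il1b at -1.71, Casp1 at -1.05, Casp4 at -1.94 and Il18 at -1.15), and 5 without the divergent library, with Kcnk6 added, beside 14% and 20.7% of genes. After LPS in defactinib 3 were higher (Nlrp3 by 3.07, Il1b by 2.17 and Txnip by 1.51) and 1 was lower (Il18, at -1.14), beside 8.87% and 8.45% of genes. These genes are described because P2X7 acts upstream of the inflammasome, and nothing here measured receptor activity.

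**Figure D5:**
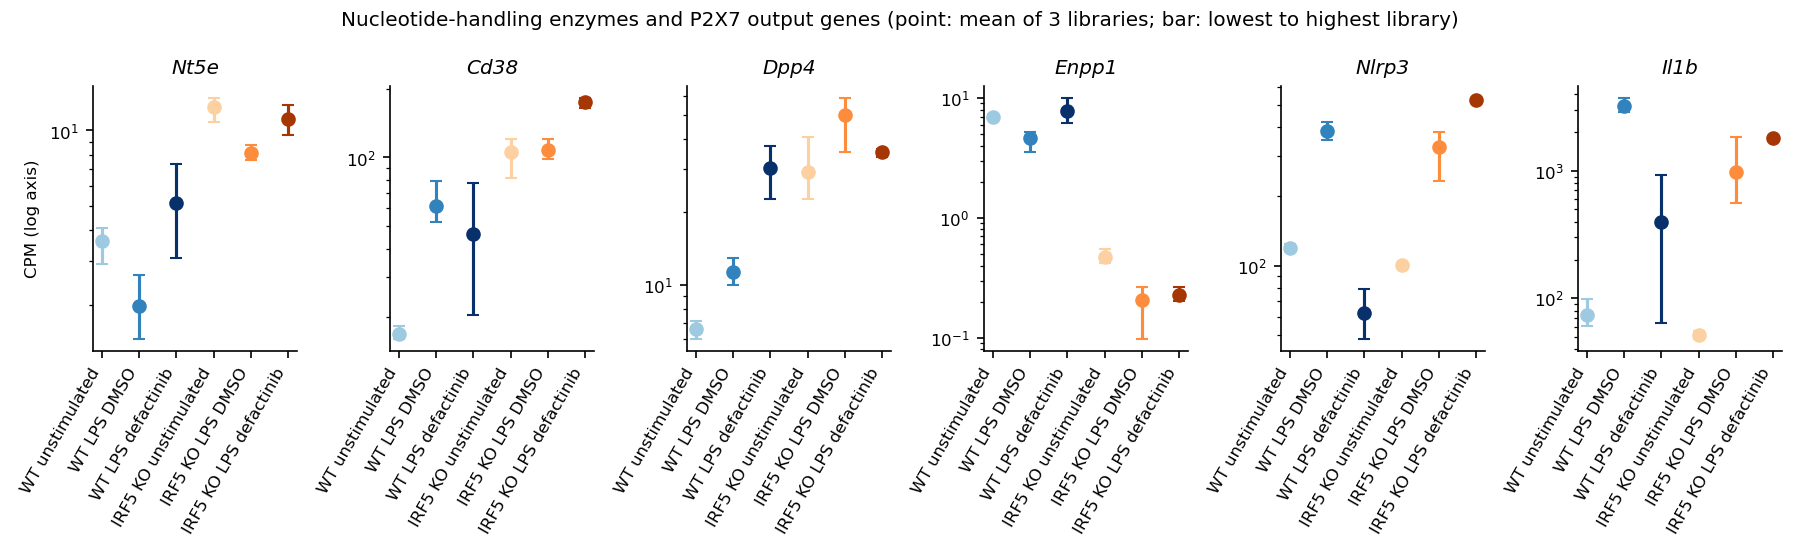
Mean level in CPM (log axis; bars from the lowest to the highest library) of Nt5e, Cd38, Dpp4, Enpp1, Nlrp3 and Il1b in the 6 groups. Enpp1 stayed below 1 CPM in all IRF5 KO groups against 4.66 CPM or more in WT group means, and Nlrp3 in defactinib was at 62.5 CPM in WT and 526.4 CPM in IRF5 KO cells.

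Of the G proteins and other genes of cAMP signalling, 31 of 32 were tested. LPS in WT cells raised 3 (Rgs1, Pde4b and Adcy6) and lowered 4, among them the arrestin gene Arrb1, beside 11.6% of all genes called higher and 9.71% lower. The cAMP-degrading phosphodiesterase Pde4b rose by 2.63 (SE 0.43, adjusted p = 0.000172), and the adenylyl cyclase Adcy6 by 1.64. LPS in IRF5 KO cells raised 2 (Rgs1 and Pde4b) and lowered 3, beside 7.07% and 6.28%. Defactinib raised 1 and lowered 1 in WT cells (Adcy9 and Gna13), beside 10.4% and 18.6%. In IRF5 KO cells edgeR called 0 changed, beside 0.160% of all genes called higher and 0.760% lower, and 7 had an unadjusted p below 0.05. The adenylyl cyclase Adcy3 was lower in IRF5 KO cells in all 3 conditions. Unstimulated it stood at 0.549 ± 0.222 against 4.88 ± 0.0814 CPM, a log2 fold change of -3.15. After LPS the difference was -3.32 in DMSO (-3.64 without the divergent library) and -3.55 in defactinib. Unstimulated IRF5 KO cells had 2 of this list lower than WT, beside 3.80% of genes, and those in defactinib 1 higher (Pde4b, by 1.90) and 4 lower, beside 8.87% and 8.45%. After LPS in DMSO 1 was higher and 2 were lower, beside 11.8% and 14%. Without the divergent library these were 2 and 5, beside 13.8% and 20.7%. The list median was close to 0 for LPS in WT cells, at -0.00062 against -0.0045 over all genes.

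As a description, the genes whose log2 CPM followed each receptor most closely over the 18 libraries were listed by Pearson's r, leaving out genes whose log2 CPM averaged under 1. The libraries share groups and depth, so that any gene with the same group pattern scores high. P2ry6 was followed most closely by Slc35c1 at r = 0.994, and P2ry1 by Nlrp10 at 0.985. Adora2a was followed by the adhesion molecule gene Icam1 at 0.980, then by Pkn2 at 0.977 and Arhgef3 at 0.974. P2ry10 was followed by Slc33a1 at 0.982. P2ry2 was nearest to Syne3 at 0.972, Adora3 to Gpr171 at 0.969, P2ry14 to Nrbp1 at 0.962, Adora2b to Kctd20 at 0.961, P2rx7 to Serpinb8 at 0.957 and P2rx4 to Ly6e at 0.910. Among the receptors themselves the highest r was between P2ry1 and P2ry10 at 0.873 and between P2ry1 and P2ry6 at 0.864. The lowest was between P2ry2 and P2rx4 at -0.747.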

How the data were processed

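Gene-level read counts were deposited as 1 table for the 18 samples. Per the file headers and the submitters' notes, the authors aligned read pairs to mm10 with STAR and counted uniquely mapped, reverse-stranded pairs per gene with featureCounts 1.6.3. The annotation release is not given in the sources used here. Of 50600 entries 50376 matched a symbol, and 0 sample columns were left unmapped. Counts were analysed with edgeR 4.0.16 (limma 3.58.1, R 4.3.3): filterByExpr over 6 groups, TMM scaling, a robust quasi-likelihood fit to all 18 libraries with 1 coefficient per group and no block, and Benjamini-Hochberg adjustment over 15663 genes. A call needed adjusted p below 0.05 and a log2 fold change beyond 1. Standard errors are the log2 fold change over the root of F. CPM were TMM-scaled, with a prior count of 2 on the log2 scale. TPM were computed from counts and exon lengths. All 10 receptors are named, with at most the 4 most abundant called genes of each pathway list, and genes of a count of 5 or fewer were also named after their values were seen. The members and lists were chosen with earlier results of these data known. The labels do not say whether libraries of equal replicate number share a mouse, and the numbers were not used as pairs. Alternatives were RLE, library size alone, other filters, DESeq2 1.42.0, limma-voom, a replicate block, fits to the groups compared, other thresholds and leaving out each library. The series' text calls the replicates biological, without saying whether they came from separate mice, so p-values measure the spread between these libraries. Promoters came from RefSeq (GRCm38.p6).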

Additional observations from a re-analysis of the deposited data

Results flagged for a closer look

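For 6 receptors the response to a treatment differed between IRF5 KO and WT cells by the test of the difference itself. Values are the IRF5 KO response minus the WT response on the log2 scale. The LPS response differed by -1.85 for P2ry14, by -1.80 for Adora2a and by 1.73 for Adora2b. The defactinib response differed by 2.69 for P2ry2, by 1.75 for P2ry14, by 4.79 for Adora2a and by 1.83 for Adora2b. It also differed by -1.69 for P2ry6 and by -1.18 for P2rx7, but these were -0.68 and -0.64 without IRF5 KO LPS DMSO replicate 3 and no longer called. Those of P2ry6 were also lost without WT LPS DMSO replicate 2 (-1.59), WT LPS defactinib replicate 3 (-1.54) or IRF5 KO LPS defactinib replicate 3 (adjusted p up to 0.0611 over all libraries left out), and those of P2rx7 without any 1 of 9 libraries (adjusted p up to 0.0906). Both calls were also lost with limma-voom (adjusted p = 0.0635 for P2ry6 and 0.0828 for P2rx7), with no filter on low counts (0.0805 and 0.0900) and with only the groups compared in the fit (0.0728 and 0.0934). With the fold threshold inside the test both were lost too. So were the LPS interactions of P2ry14 and Adora2a and the defactinib interaction of P2ry14. Both interactions contain the WT LPS DMSO and IRF5 KO LPS DMSO libraries with opposite signs, so the LPS and defactinib values of 1 gene are not independent. No outlier test was applied to single values within a group, since each held 3. The divergent library was identified from its correlation with its group.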

How the results depend on the processing

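The counts of receptors called kept within 1.5 times their value under most settings. With the fold threshold inside the test they were 4 for LPS in WT (7 in the fit described), 1 for LPS in IRF5 KO (4), 2 for defactinib in WT (5), 0 between unstimulated genotypes (2), 3 between genotypes after LPS in DMSO (7), 1 for the LPS interaction (3) and 3 for the defactinib interaction (6), beside 1584, 327, 2412, 355, 1760, 108 and 1357 of all 15663 genes in the same order. Fits to only the groups compared gave 1 for LPS in IRF5 KO and 4 between genotypes after LPS in DMSO, beside 130 and 2733 genes. Without a filter defactinib in WT gave 3, beside 4672 genes, and without a fold threshold 8, beside 8922 of 15663 genes. For defactinib in IRF5 KO (0), DESeq2 gave 1 (P2ry1), no fold threshold 1 (Adora2b) and the replicate block 1 (Adora2b), beside 523, 527 and 82 genes. Leaving out 1 library gave 3 to 8 for LPS in IRF5 KO. There were 8 without IRF5 KO LPS DMSO replicate 3, beside 4207 genes, and 3 without replicate 1 or 2 of that group, beside 1037 and 1067. Defactinib in WT gave 3 to 5 (3 without WT LPS DMSO replicate 2, beside 4238 genes) and in IRF5 KO 0 to 2 (2 without IRF5 KO LPS DMSO replicate 1 or 2). Unstimulated genotypes gave 1 to 2. The LPS interaction gave 3 to 5 (5 without IRF5 KO LPS DMSO replicate 3, beside 7.02% of genes called higher and 16.5% lower). Signs turned in these cases. In IRF5 KO cells the LPS response of P2rx4 was -0.12 with library size alone (0.12 before), and that of P2ry2 to defactinib 0.15 with limma-voom and 0.061 with the replicate block (-0.06). The genotype difference of P2ry1 after LPS in DMSO was 0.29 with library size alone, 0.017 without a filter and 0.017 with at least 5 CPM in 3 libraries (-0.02). Leaving out 1 library turned signs within these ranges: between genotypes after LPS in DMSO, Adora3 -0.33 to 2.69 and P2ry1 -1.23 to 0.35; between genotypes in defactinib, P2rx4 -0.041 to 0.31, P2rx7 -0.18 to 0.37 and P2ry14 -0.49 to 0.11; for defactinib in IRF5 KO, Adora3 -2.68 to 0.28, P2rx7 -0.52 to 0.25, P2ry10 -1.36 to 0.60, P2ry2 -0.40 to 0.82 and P2ry6 -0.92 to 0.43; for defactinib in WT, Adora3 -1.70 to 0.013; for the LPS interaction, Adora3 -1.27 to 1.76 and P2ry1 -0.61 to 0.97; for the defactinib interaction, Adora3 -2.17 to 0.90 and P2ry1 -1.42 to 0.18. The cause was not tested. Scaling by library size alone moved the median of all genes by -0.38 to 0.25 in the pairwise comparisons and by -0.33 in the defactinib interaction. Libraries with the same replicate number did not deviate together (45 pairs, median r = 0.0046, 4 above 0.1), so the numbers were not taken as pairs, and the replicate block changed no other count by over 1.5 times. Adora3 and P2ry1 had the lowest counts, although P2ry10 had a larger standard error than P2ry1 in every comparison.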
